A study of Homo sapiens with 9 samples.

Results

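Amphiregulin (AREG), epiregulin (EREG) and heparin-binding EGF-like growth factor (HBEGF) are ligands of the epidermal growth factor (EGF) family. They were followed as 3 of the 19569 gene IDs in a table of ribosome footprint counts, as ENSG00000109321.11, ENSG00000124882.4 and ENSG00000113070.8. The 9 libraries came from clone E6-1 of Jurkat, a human leukaemic T lymphoblast line, so the values describe 1 clonal line and not T cells from blood. There were 3 libraries from resting cells, 3 from cells taken 5 h after activation and 3 from cells taken at 12 h. Activation combined anti-CD3 antibody bound to the plate (coated at 10 µg/mL) with anti-CD28 antibody in the medium (5 µg/mL). Both the T cell receptor and CD28 were thus engaged. The 3 genes are members of one ligand family and were chosen by their footprint counts in these libraries at rest, 5 h and 12 h, with earlier results known. Their levels are therefore given as a description, with standard deviations, standard errors and intervals but no p-values.

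EGF family ligands are made as membrane-anchored precursors, and cell-surface metalloproteases such as ADAM17 cut them to release the soluble growth factor. AREG binds the EGF receptor, whereas EREG and HBEGF bind both the EGF receptor and ERBB4. AREG is also made by several kinds of leukocyte, including activated and regulatory T cells, and is known there for its part in tissue repair. HBEGF binds heparan sulphate on cell surfaces, and its precursor is the receptor for diphtheria toxin in humans. Ribosome profiling counts the mRNA fragments that ribosomes protect, so a footprint level reflects both the amount of an mRNA and its translation, and these cannot be told apart here.

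AREG and EREG both lie on chromosome 4, with 0 annotated genes between them in RefSeq, and HBEGF lies on chromosome 5. The stretch of 250 bases before the RefSeq start site of each gene is given because AREG had footprints after activation while its neighbour EREG had almost none, with HBEGF as the family member on another chromosome. The sequences are those of RefSeq in GRCh38.p14, written 5′ to 3′ on the gene's strand. Capitals mark matches to the motifs described after them.
AREG, chr4:74444886-74445135, plus strand: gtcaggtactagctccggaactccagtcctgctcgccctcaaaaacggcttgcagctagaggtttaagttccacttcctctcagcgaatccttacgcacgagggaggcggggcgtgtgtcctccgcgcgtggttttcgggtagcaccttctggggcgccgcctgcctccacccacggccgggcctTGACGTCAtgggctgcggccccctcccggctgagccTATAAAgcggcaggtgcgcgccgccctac
EREG, chr4:74364895-74365144, plus strand: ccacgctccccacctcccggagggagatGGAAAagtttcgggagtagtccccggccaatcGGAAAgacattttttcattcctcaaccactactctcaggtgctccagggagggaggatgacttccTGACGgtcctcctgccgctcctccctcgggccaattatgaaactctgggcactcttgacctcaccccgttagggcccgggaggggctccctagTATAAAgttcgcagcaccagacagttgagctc
HBEGF, chr5:140346604-140346853, minus strand: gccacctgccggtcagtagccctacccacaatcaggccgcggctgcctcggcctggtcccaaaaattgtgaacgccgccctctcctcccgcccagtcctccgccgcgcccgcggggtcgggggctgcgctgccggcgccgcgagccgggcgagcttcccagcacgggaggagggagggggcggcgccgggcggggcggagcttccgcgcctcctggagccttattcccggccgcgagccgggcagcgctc

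The AREG stretch held the full cyclic AMP response element (CRE), TGACGTCA, from 65 to 58 bases before the start site. This palindrome is recognised by CREB and ATF family factors. It occurred in 1.65% of the 35116 RefSeq promoter stretches of the same length. The CRE core, TGACG, occurs 2 times within it, on opposite strands and with an overlap. EREG held 1 core, from 125 to 121 bases before the start site, and a core on either strand was present in 21.2% of all stretches. The NFAT core GGAAA, the short element bound by the calcium-activated NFAT factors, matched 2 places in EREG and none in the AREG or HBEGF stretches, against 55.6% of all stretches with a match on either strand. A TATA box, TATAAA, lay from 29 to 24 bases before the AREG start site and from 32 to 27 bases before that of EREG, and 10.7% of all stretches held one. The AP-1 motif TGANTCA, the EGR motif GCGNGGGCG and the CArG box bound by serum response factor had no match in any of the 3 stretches, and 6.57%, 8.41% and 1.16% of all stretches held them. HBEGF matched none of the motifs searched. All motifs were searched on both strands. A match is a description of the letters and not a binding site, and the absence of a match concerns these 250 bases only.

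**Figure D1:**
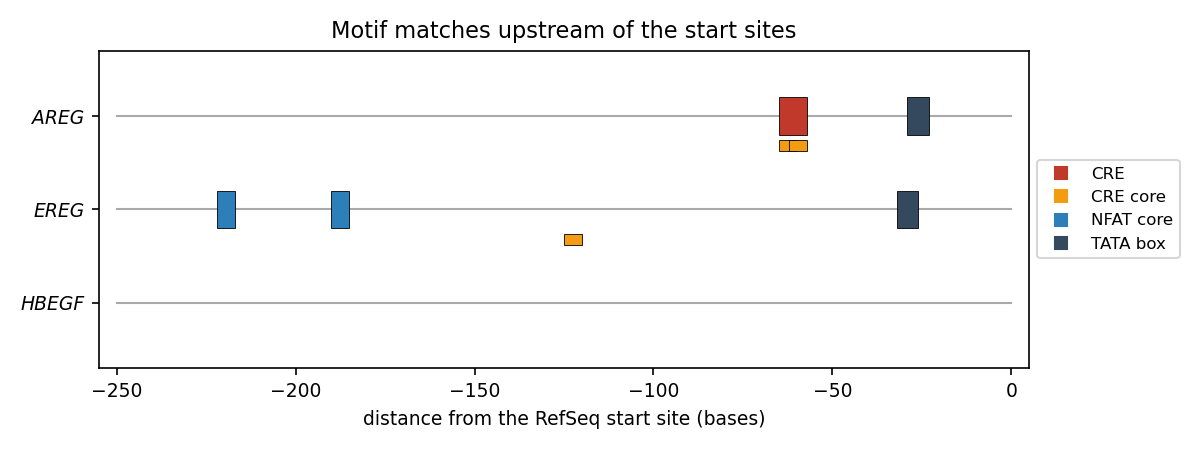
Motif matches in the 250 bases before the RefSeq start sites of AREG, EREG and HBEGF, with the distance from the start site in bases on the x axis and 1 line per gene. Each box spans a match, with CRE cores drawn below the line. AREG carries the full CRE and a TATA box, EREG 1 CRE core, 2 NFAT cores and a TATA box, and HBEGF no match.

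The comparisons over time ask how the footprints of each ligand stood early and late after stimulation. The smallest library, 12 h replicate 2, held 4343515 counts and the largest, 5 h replicate 3, held 18506509. The labels call the 3 libraries of a group biological replicates. Levels are CPM, counts put on one library size by edgeR's TMM method, so they are relative to all footprints of a library. More or fewer footprints per cell overall would leave them as they are. The table carries no gene names, so T cell markers and markers of other cell types were not analysed here. Gene lengths were not used, so levels were not compared between genes.

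AREG had no footprint counted in resting cells, a burst at 5 h and a small remainder at 12 h. Its counts were 0, 0 and 0 in the resting libraries. They were 66, 107 and 151 in the 5 h libraries. They were 1, 3 and 7 in the 12 h libraries. Every 5 h library was above every other library, and the 12 h libraries did not overlap either of the other groups. Such separations were common: 23.1% of the IDs tested were higher at 5 h than at rest without overlap. The share was 22.1% for 12 h above rest and 20.8% for 12 h below 5 h. For AREG the separation of 12 h from rest depends on the 1 count in 12 h replicate 1.

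On the CPM scale AREG was at 0 in all 3 resting libraries. It was at 6.65, 8.02 and 8.2 CPM in the 5 h libraries, a mean of 7.62 ± 0.846 (SD, n = 3). It was at 0.0856, 0.657 and 0.941 CPM in the 12 h libraries, a mean of 0.561 ± 0.436 (SD, n = 3). The 5 h libraries were close to each other, while those at 12 h were far apart and rested on few counts.

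The 5 h mean of AREG was 69.5 times a floor of 3 counts over the 3 resting libraries together. This ratio allows for the counting error of the resting 0 and not for that of the 5 h mean. Leaving out resting replicate 1, 2 or 3 gave a ratio of 47.5, 46.2 or 44.7, because the same floor then falls on fewer resting counts. At 12 h the mean was 5.11 times the same floor, and the counting error of its 11 counts is likewise not included. The 12 h ratio was 3.48, 3.39 or 3.28 when resting replicate 1, 2 or 3 was left out and 3.36 when 12 h replicate 3 was. No overlap with the 5 h group higher was found for 23.1% of the 13920 IDs tested against rest, and with the 12 h group higher for 22.1%. AREG was the member with such a separation, and nothing is read from that count.

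Between the activated groups AREG was 14.8-fold lower at 12 h than at 5 h, with a 95% interval from 5.97 to 36.6. AREG was chosen from these data and passed the low-count filter through its 5 h counts. A lower 12 h level is favoured by that selection, so the fold and its interval are a description and not a test. The log2 fold change was -3.89 ± 0.63 (SE derived from the edgeR fit, 3 libraries a group). Leaving out 12 h replicate 1 gave -3.20 and leaving out 12 h replicate 3 gave -4.76, so the size of this difference depended on which 12 h library was left out. No overlap with the 12 h group lower was found for 20.8% of all IDs tested. EREG and HBEGF overlapped between the groups in this and in both other comparisons.

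Counting error sets how firmly the low AREG values can be read. With a limit of 3 counts, a resting 0 allowed up to 0.325, 0.295 and 0.295 unscaled CPM, over the total counts, in replicates 1, 2 and 3. The exact 95% upper limits of these 0 counts were 0.399, 0.363 and 0.363. The 5 h libraries held 6.95, 8.21 and 8.16 unscaled CPM of AREG, and their lowest exact 95% bound was 5.38. The whole interval of each 5 h library thus lay above what a resting 0 allows. In 12 h replicate 1, the deepest 12 h library, the single count gave 0.0897 unscaled CPM with an exact 95% interval from 0.00227 to 0.5, which includes the resting limits. In 12 h replicate 2 the level was 0.691 unscaled CPM with an interval from 0.142 to 2.02, which also includes them. In 12 h replicate 3 the level was 1 unscaled CPM with an interval from 0.402 to 2.06, above them but only just above the exact limit of 0.399. Pooled over the group, AREG had 0.489 unscaled CPM at 12 h, with an interval from 0.244 to 0.875, against a pooled resting limit of 0.101. The exact 95% upper limit of the pooled resting 0 was 0.125. These limits cover counting error only, since amplified fragments are not independent molecules.

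**Figure D2:**
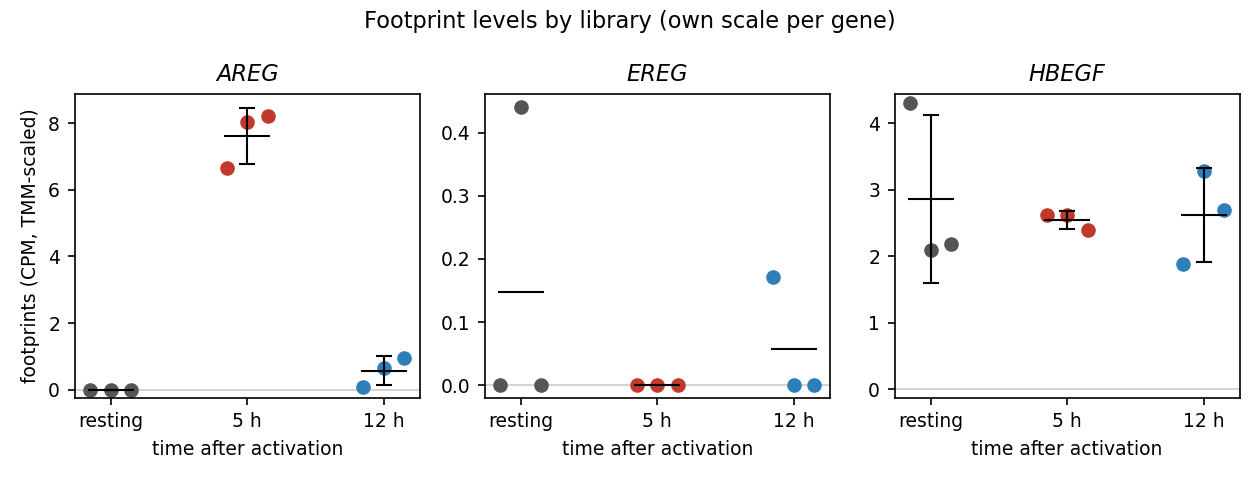
Footprint level (y axis, TMM-scaled CPM, a separate scale for each gene) of AREG, EREG and HBEGF in resting cells and at 5 h and 12 h (x axis). Points are the 3 libraries of a group, horizontal bars the means and whiskers the SD (not drawn for EREG). AREG stands at 6.65 to 8.2 CPM at 5 h and below 1 CPM elsewhere, EREG is at 0 in 7 of 9 libraries, and HBEGF overlaps across the groups.

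AREG was one of 1271 IDs without a count in any resting library. At 5 h 793 of these had a count, and 196 had one in every 5 h library. A summed 5 h count of at least 50 was reached by 24 of them, AREG included. Since a high 5 h count selects these IDs, a lower level at 12 h is favoured by the selection, and their values are given as a description only. The 12 h mean of AREG was 7.36% of its 5 h mean. Over the 24 IDs the median was 16.2%, the lowest value 0% and the highest 342%, and 9 IDs kept a smaller percentage than AREG.

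**Figure D3:**
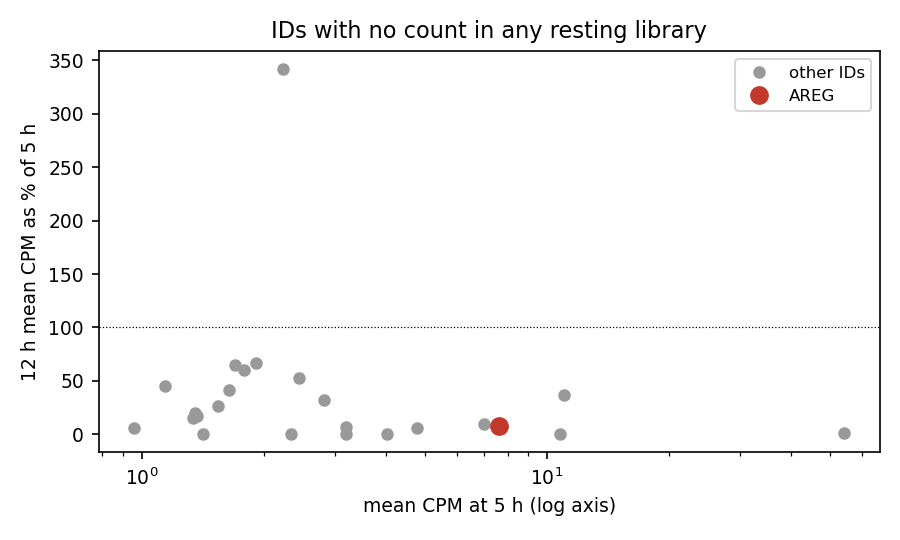
The 24 IDs with no resting count and at least 50 summed counts at 5 h, with the mean CPM at 5 h on the x axis (log axis) and the 12 h mean as a percentage of the 5 h mean on the y axis. The dotted line marks 100%. AREG stands at 7.62 CPM and 7.36%, and 1 ID stands at 342%. The IDs were selected on their 5 h counts, which favours values below the line.

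The course of AREG was closely matched by other IDs. Over the 9 libraries, Pearson's correlation of log2 CPM with AREG was above 0.9 for 273 of 13919 other IDs. The points share the libraries and fall into 3 groups, so the correlation is a description with no p-value. The closest was ENSG00000169194.9, with a correlation of 0.986. Its level was 0 CPM at rest, 6.99 ± 2.48 CPM at 5 h and 0.695 ± 0.625 CPM at 12 h (SD, n = 3). The next was ENSG00000184164.15, also at 0.986, with 16.6 ± 1.02 CPM at rest, 34.6 ± 2.17 CPM at 5 h and 22.1 ± 3.64 CPM at 12 h. The first ID was like AREG in having no resting count and in keeping 9.95% of its 5 h mean at 12 h, against 7.36% for AREG. The second had resting counts and a smaller change. A high correlation thus marks a like shape and not always a like size of change. The sources used here give no gene name for these IDs.

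EREG, the neighbour of AREG on chromosome 4, had almost no footprints at any time. Its counts were 0, 4 and 0 in the resting libraries. They were 0, 0 and 0 in the 5 h libraries. They were 2, 0 and 0 in the 12 h libraries. In all, EREG had 6 counts of 93094895, or 0.0645 unscaled CPM with an exact 95% interval from 0.0237 to 0.140.

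The 4 resting counts of EREG all came from replicate 2, without which it had no resting count. At 5 h the 0 of EREG over 41025393 counts allowed a level of up to 0.0731 unscaled CPM. The low-count filter removed EREG, which therefore was not fitted. A difference between the groups was not detectable at this depth.

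HBEGF had footprints in every library and no separation between the groups. Its counts were 37, 19 and 21 at rest, or 4.31, 2.09 and 2.18 CPM. They were 26, 35 and 44 at 5 h, or 2.62, 2.62 and 2.39 CPM. They were 22, 15 and 20 at 12 h, or 1.88, 3.28 and 2.69 CPM. The highest value was that of resting replicate 1 and the lowest that of 12 h replicate 1, and all 3 groups overlapped.

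The mean level of HBEGF was 2.86 ± 1.26 CPM at rest, 2.54 ± 0.135 CPM at 5 h and 2.62 ± 0.703 CPM at 12 h (SD, n = 3 each). The order of the means was resting, 12 h, 5 h from high to low, and no neighbours in that order differed beyond their spread.

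The log2 fold change of HBEGF was -0.16 ± 0.50 (SE) at 5 h against rest, which as a fold is 0.892 with a 95% interval from 0.437 to 1.82. At 12 h against rest it was -0.15 ± 0.51, a fold of 0.902 with an interval from 0.432 to 1.88. At 12 h against 5 h it was 0.02 ± 0.51, a fold of 1.01 with an interval from 0.485 to 2.11. These intervals allow a change in either direction and do not show that HBEGF was constant. Resting replicate 1 set the direction against rest: without it the log2 fold change was 0.25 ± 0.58 at 5 h and 0.26 ± 0.59 at 12 h. The 12 h value against rest was also positive, at 0.05, without 12 h replicate 1, and the small 12 h against 5 h value turned negative without some libraries, with -0.17 the lowest.

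Resting replicate 1 held HBEGF at 4 unscaled CPM, with an exact 95% interval from 2.82 to 5.52. Replicate 2 held 1.87 unscaled CPM with an interval from 1.12 to 2.92, and replicate 3 held 2.07 with an interval from 1.28 to 3.16. The interval of replicate 1 overlapped those of the other two at its lower end. Pooled over each group, HBEGF was at 2.6 unscaled CPM at rest, 2.56 at 5 h and 2.53 at 12 h, with intervals from 2.05 to 3.25, from 2.09 to 3.1 and from 1.92 to 3.28.

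**Figure D4:**
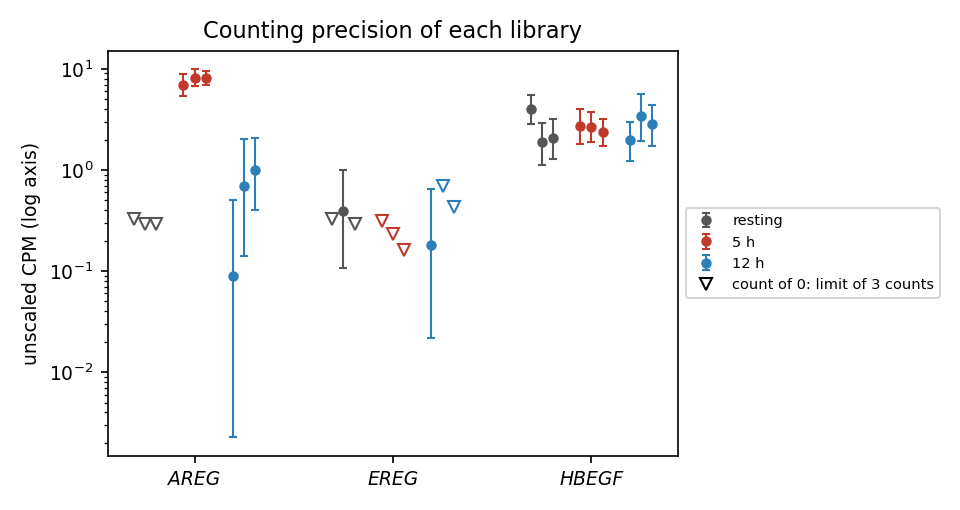
Unscaled CPM, taken over the total counts (y axis, log axis), of AREG, EREG and HBEGF in each library, with exact 95% binomial intervals. Within each gene the libraries run from resting through 5 h to 12 h, and open triangles mark the limit of 3 counts given to a count of 0. The 5 h intervals of AREG lie above all its other libraries, whereas the HBEGF intervals of the 3 groups overlap.

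In the authors' own log2 values, which list IDs with a count in every library, HBEGF was present and AREG and EREG were not. There HBEGF averaged 4.63 ± 0.56 at rest, 4.53 ± 0.07 at 5 h and 4.58 ± 0.38 at 12 h (log2 of the scaled count plus 1, SD, n = 3). The burst of AREG is thus seen in the counts and cannot be seen in the deposited log2 values.

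Among the 13920 IDs tested, 34.1% had a lower fitted log2 fold change than HBEGF at 5 h against rest. The share was 37.3% at 12 h against rest and 55.2% at 12 h against 5 h. No such share is given for AREG, which reached the test through its 5 h counts.

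**Figure D5:**
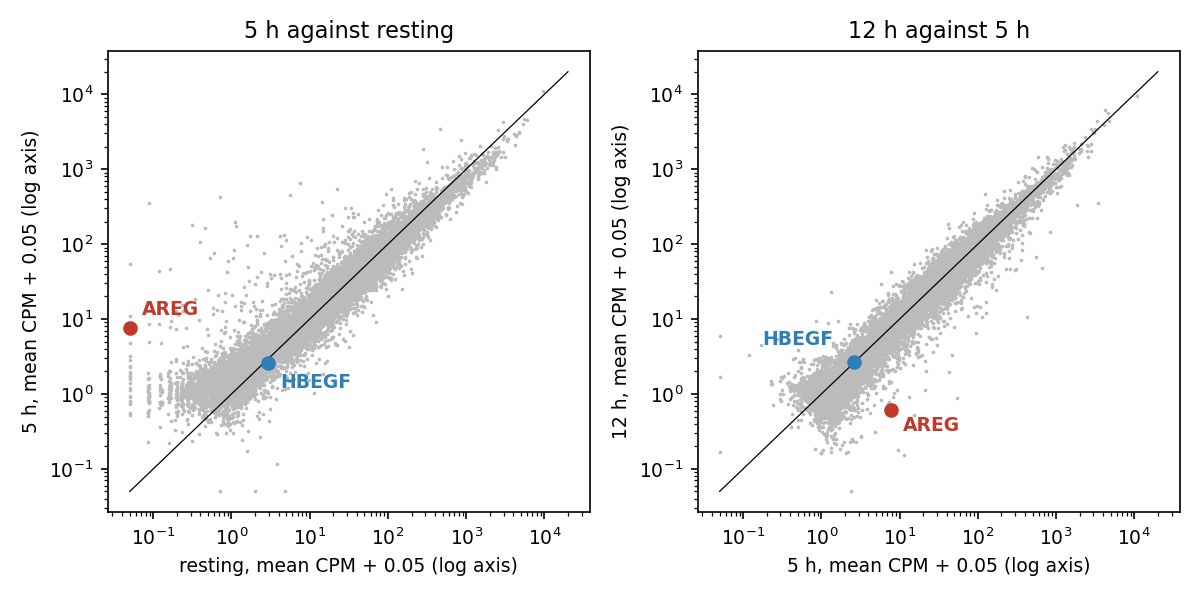
Mean CPM plus 0.05 (log axes) of the 13920 IDs tested, at 5 h against rest on the left and at 12 h against 5 h on the right, with the line of equal levels. In the left panel AREG lies at the left edge, far above the line, and in the right panel it lies below the line. HBEGF lies near the line in both. EREG, with 6 counts in all, was not among the IDs tested.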

How the data were processed

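The authors deposited raw footprint counts, whole numbers per versioned Ensembl ID, for 3 libraries each of resting, 5 h and 12 h Jurkat cells. Per the submitters' processing notes the build was GRCh38.p13, and the tools named, with no roles, include RSEM, DESeq2, Bowtie, bedtools and cutadapt 3.2. The sources used here do not give how footprints were isolated or how fragments matching several genes were counted. RefSeq lists AREGB as a synonym of AREG, and 0 other IDs had the same counts as AREG. That check finds only exact duplicates, so an ID that shared part of the AREG fragments would be missed. The authors' deposited log2 values equal log2 of the count over 1 factor per library plus 1, to within 5.03e-09.

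Counts of all 9 libraries were fitted together with edgeR 4.0.16 in R 4.3.3: TMM scaling, filterByExpr (13920 IDs left, AREG and HBEGF among them), and quasi-likelihood tests with Benjamini-Hochberg adjustment at 0.05 over all IDs. The procedure was tested on simulated data, with changes planted only in IDs above a minimum mean count. No group at a level of 0 was planted, so that test does not cover AREG against rest. The edgeR test gives no SE, so each was derived as the absolute log2 fold change over the square root of the quasi-likelihood F statistic. The 95% intervals of the folds are t intervals built on these SEs and are approximate. Binomial intervals are exact (Clopper-Pearson, 95%), and a count of 0 was given a limit of 3 counts. DESeq2 1.42.0, limma 3.58.1 on the authors' values, other scalings and filters, a replicate block and leaving out each library served as alternatives. Similar IDs were ranked by Pearson's correlation of log2 CPM with a prior count of 2.

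The members and lists were chosen with earlier results of these data known. The genes to be named were the members, listed genes of the EGF system, the 5 IDs most like each member and the chromosomal neighbours. The tables used here pair no other Ensembl ID with a symbol, so other ligands, receptors, shedding proteases, neighbours and cell type markers were not analysed here, and only the 2 IDs most like AREG are printed.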

Additional observations from a re-analysis of the deposited data

How the results depend on the processing

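The counts of called IDs over the whole table, 4797 for 5 h versus resting, 4887 for 12 h versus resting and 3497 for 12 h versus 5 h, stayed within 1.5 times under every alternative run: from 3949 to 4994, from 4021 to 5056 and from 2831 to 3786. The ratio of mean AREG to the resting floor, 69.5 at 5 h, ran from 68.8 to 71.7 over other scalings and filters. It ran from 44.7 to 73.7 when a library was left out. At 12 h the ratio, 5.11, ran from 5.01 to 5.42 and from 3.28 to 7.24. The AREG log2 fold change for 12 h versus 5 h, -3.89, ran from -3.98 to -3.86 and from -4.76 to -3.20. Over other tools, scalings, fits and no low-count filter the HBEGF log2 fold change ran from -0.18 to -0.10, from -0.18 to -0.06 and from 0 to 0.05 in the 3 comparisons. The filter of at least 50 counts in 3 libraries removed HBEGF and gave no value. The HBEGF values with a library left out ran from -0.35 to 0.25 for 5 h versus resting, from -0.34 to 0.26 for 12 h versus resting and from -0.17 to 0.22 for 12 h versus 5 h. The difference in mean CPM of EREG, -0.147 for 5 h minus resting, ran from -0.223 to 0, and that for 12 h minus resting, -0.0895, from -0.166 to 0.0576. With a prior count of 0.5 in the correlation, 3 of the 5 IDs most like AREG and 5 of the 5 most like HBEGF were shared.

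The replicate numbers share only a number: deviations of same-numbered libraries correlated at -0.0625 to 0.0901, and 3 of 9 correlated best with their own number. With the replicate block 4644, 4689 and 3373 IDs were called, the AREG log2 fold change for 12 h versus 5 h was -3.98, and HBEGF was at -0.14, -0.11 and 0.02. Not run were the alternatives for other EGF system genes and for levels per coding length, which need names and lengths, and for a second AREG ID. Limma on the authors' values could not include AREG or EREG. Depth limits EREG and the 12 h values of AREG most, since these rest on 6 and 11 counts.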
